A study of Mus musculus with 8 samples.

Results

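Isolated accessible sites were examined in mouse embryonic stem cells held in a drug-induced pause. A site was taken as isolated when it lay on autosomes 1 to 19 and its centre was at least 50 kb from the centre of the next listed peak on each side. Of the 134407 peaks of the table, 131317 were autosomal and 3477 met this rule, 2.59% of all peaks and 2.65% of the autosomal ones. The rule used positions only, and no measured value. Its distances refer to the 1 peak set that the authors shared among all samples, so that a weak site left out of that set does not count as a neighbour.

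ATAC-seq was used to measure accessibility: a transposase, Tn5, inserts sequencing adapters where chromatin is open. The cells were wild-type E14 embryonic stem cells on gelatin in serum and LIF, with 4 control libraries and 4 paused libraries of 50000 cells each. The paused cells had received INK128, which inhibits the mTOR kinase, at 200 nM for 24 h; the control cells are labelled as the control condition, with no statement of a vehicle. The labels do not say whether the libraries of a group came from separate cultures, so that p-values measure the spread between these libraries, which may be technical.

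Open sites in a mammalian genome are crowded around gene starts and in clusters of enhancers, which are stretches of DNA that bind transcription factors and act on genes at a distance. Gene-poor stretches hold few open sites, and the genes beside them are often long genes of the nervous system, cell adhesion genes or families of sensory receptors. The mTOR kinase couples nutrient supply to growth, and its inhibition slows the growth and transcription of embryonic stem cells without loss of their identity.

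Sequences could be shown for the isolated peaks that lay at gene starts, from RefSeq promoter windows of build GRCm38.p6, which run from 250 bases before to 50 bases after each start site. The peaks at Glra3, Cabcoco1, Col25a1 and Dab1 are shown because they were the isolated peaks at a gene end with the smallest adjusted p that fell inside such a window. The peak at Megf9 is shown because it was the strongest isolated peak. The 250 bases before each start are given 5′ to 3′ on the strand of the gene, with CpG dinucleotides in capitals.
Glra3, chr8:55940168-55940417, plus strand: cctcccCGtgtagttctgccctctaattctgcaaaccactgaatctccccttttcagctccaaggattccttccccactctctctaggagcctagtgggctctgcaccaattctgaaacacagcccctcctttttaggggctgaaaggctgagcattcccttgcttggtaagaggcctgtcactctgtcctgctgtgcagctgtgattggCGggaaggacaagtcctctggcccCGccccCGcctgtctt
Cabcoco1, chr10:68541876-68542125, minus strand: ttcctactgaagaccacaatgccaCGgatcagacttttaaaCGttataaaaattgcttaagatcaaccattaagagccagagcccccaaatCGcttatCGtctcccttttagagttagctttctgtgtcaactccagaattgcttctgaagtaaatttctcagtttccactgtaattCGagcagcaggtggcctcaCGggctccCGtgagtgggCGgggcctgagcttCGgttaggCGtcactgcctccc
Col25a1, chr3:130180595-130180844, plus strand: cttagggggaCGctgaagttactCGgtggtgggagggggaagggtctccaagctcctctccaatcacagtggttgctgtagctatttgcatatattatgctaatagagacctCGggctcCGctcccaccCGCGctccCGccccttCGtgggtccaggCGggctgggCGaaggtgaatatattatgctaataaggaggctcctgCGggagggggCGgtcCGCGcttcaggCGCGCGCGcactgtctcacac
Dab1, chr4:103619250-103619499, plus strand: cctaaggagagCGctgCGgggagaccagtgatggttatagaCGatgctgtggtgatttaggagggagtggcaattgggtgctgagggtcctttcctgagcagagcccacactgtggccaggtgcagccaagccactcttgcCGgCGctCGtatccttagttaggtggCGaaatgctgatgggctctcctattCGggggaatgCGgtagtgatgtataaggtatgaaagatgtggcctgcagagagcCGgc
Megf9, chr4:70534929-70535178, minus strand: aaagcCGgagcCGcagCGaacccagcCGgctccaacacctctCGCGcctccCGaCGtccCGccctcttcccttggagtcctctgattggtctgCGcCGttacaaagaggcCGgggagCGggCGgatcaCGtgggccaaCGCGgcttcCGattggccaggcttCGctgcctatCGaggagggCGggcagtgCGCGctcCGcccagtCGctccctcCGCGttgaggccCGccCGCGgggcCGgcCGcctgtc

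These stretches differ widely in CpG content. The Megf9 stretch holds 32 CpG and is 71.6% G and C, that of Col25a1 holds 18, those of Cabcoco1 and Dab1 hold 10 each, and that of Glra3 holds 4. The centre of the peak lay 134 bases before the start of Megf9 and 187 bases before that of Col25a1, and 27, 74 and 23 bases after the starts of Glra3, Cabcoco1 and Dab1.

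Control replicate 1 stood apart by its depth, with 21161767 reads in peaks as recovered from the scaled values. The other libraries had between 4434037, in control replicate 3, and 7238935, in paused replicate 4. Peaks were found within 2 kb of a gene end for 14 of 15 stem cell marker genes, all but Dppa5a, with values from 37.8 to 344. The same held for 4 of 6 primitive endoderm genes (55.5 to 144) and 5 of 5 fibroblast genes (32.4 to 156), so that an open site near these genes does not tell the cell types apart.

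Isolated peaks were weaker than other peaks and lay in other parts of the genome. Their nearer neighbour was 74959 bp away in the median and at most 608758 bp, against a median of 3920 bp for the other autosomal peaks. The median isolated peak had a mean value of 24.4 and 23.6 reads per library, against 32.6 and 32.5 reads for the other autosomal peaks. Values are the deposited ones, reads divided by 1 factor per library. In the median, the nearest protein-coding gene end was 168949 bp from an isolated peak and 14052 bp from another autosomal peak. Inside a protein-coding gene lay 1028 of the isolated peaks, 29.6%, against 53.4% of the others. The share within 1 kb of a gene end was 5.72% against 12.3%. The gene table gives spans only, so that exons and introns were not told apart. Of the 2199 autosomal peaks between protein-coding genes and more than 500 kb from the end of any of them, 29.1% were isolated.

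At these values 501 isolated peaks, 14.4%, had a mean under 10 and were not tested, against 4.74% of the other autosomal peaks. The 2976 tested peaks had a median value of 28.0. The median number of reads over all 3477 was 64 in control replicate 1 and from 14 to 21 in the other 7 libraries. Between 0 and 48 isolated peaks had no read in a given library, where a count of 0 allows up to 3 reads, worth 1.04 at the depth of control replicate 1 and 5.08 at that of control replicate 3. The median within-group SD was 0.30 on the log2(value + 1) scale, against 0.31 for other peaks of like mean value.

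The share of all reads in peaks that fell in isolated peaks was 1.597%, 1.599%, 1.66% and 1.70% in control replicates 1 to 4 and 1.68%, 1.68%, 1.71% and 1.64% in paused replicates 1 to 4. The group means, 1.64% ± 0.0494 and 1.68% ± 0.0308 (SD, n = 4 each), differed by less than the SD of the control group, and the groups overlapped. The widest 95% Wilson interval for 1 library was that of control replicate 3, from 1.65% to 1.67%, which covers counting error only. On the scale of the deposited values the groups were apart. The median isolated peak stood at 22.1, 22.7, 23.7 and 23.5 in the control libraries and at 24.2, 25.2, 26.4 and 24.6 in the paused libraries, with no overlap. The factor of each library acts on all its peaks, and tested peaks of every kind together also shifted upward, by 0.10 (median, log2). After scaling to total reads in peaks, isolated peaks had a median shift of -0.00097. Medians of all peaks by library are not given here, so the separation cannot be read as particular to isolated peaks.

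In the comparison of paused with control cells, 402 isolated peaks rose and 56 fell. These are 13.5% and 1.88% of the 2976 tested, where of all 127402 tested peaks 11.0% were called higher and 2.91% lower. Calls are from limma-trend on log2(value + 1), with a Benjamini-Hochberg adjusted p under 0.05 over all tested peaks. The median log2 change of the isolated peaks was 0.15, with quartiles of -0.10 and 0.39, against a median of 0.10 for all tested peaks. A called change of at least 2-fold was found for 84 rises and 16 falls, where 1.43% and 0.923% of all tested peaks passed both criteria. The 4 paused and 4 control values did not overlap for 446 peaks that were higher and 86 that were lower in paused cells, 17.9% of those tested, close to the 17.4% of all tested peaks.

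Both counts moved with the processing. After TMM scaling, which brought the median of all tested peaks from 0.10 to -0.01, limma-trend called 233 isolated peaks higher and 82 lower, against 5.77% and 4.28% of all peaks. Scaled by their total reads in peaks, the libraries gave 182 and 107, against 4.51% and 5.36%. The median of the isolated peaks was then -0.00097, against -0.05 for all tested peaks. The reads gave 129 higher and 24 lower in DESeq2, against 3.06% and 1.49% of all peaks, and 318 and 97 in edgeR with TMM, against 7.13% and 5.54%. A loess correction on peak strength left 236 and 67, against 5.10% and 3.50%. In each of these fits the share of isolated peaks called higher was above that of all peaks, and the share called lower was below it. The 56 falls became 34 without control replicate 3, 28 without control replicate 4 and 35 without paused replicate 4, where 1.82%, 1.82% and 2.03% of all peaks were called lower. The rises numbered 327, 359 and 271 in these fits, against 8.47%, 9.32% and 7.05%. Without the deep control replicate 1, there were 296 rises and 43 falls, against 8.34% and 1.83% of all peaks.

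Since weak peaks moved differently from strong ones in these libraries, isolated peaks were set beside other autosomal peaks of like mean value. Tested peaks were put in 20 bins of mean value with equal counts, and the other peaks were weighted to the number of isolated peaks in each bin. The other peaks of like mean value then had a median change of 0.03, which is 0.12 below that of the isolated peaks. By the same weighting 9.24% of them were called higher and 3.36% lower, against 13.5% and 1.88%. The difference of 0.12 is a comparison of peaks within the same libraries, and it was between 0.09 and 0.14 in the fits of the same peaks with the values rescaled by TMM, total reads or loess, by edgeR and by DESeq2. No test of this difference was made, since peaks are not replicates.

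**Figure D1:**
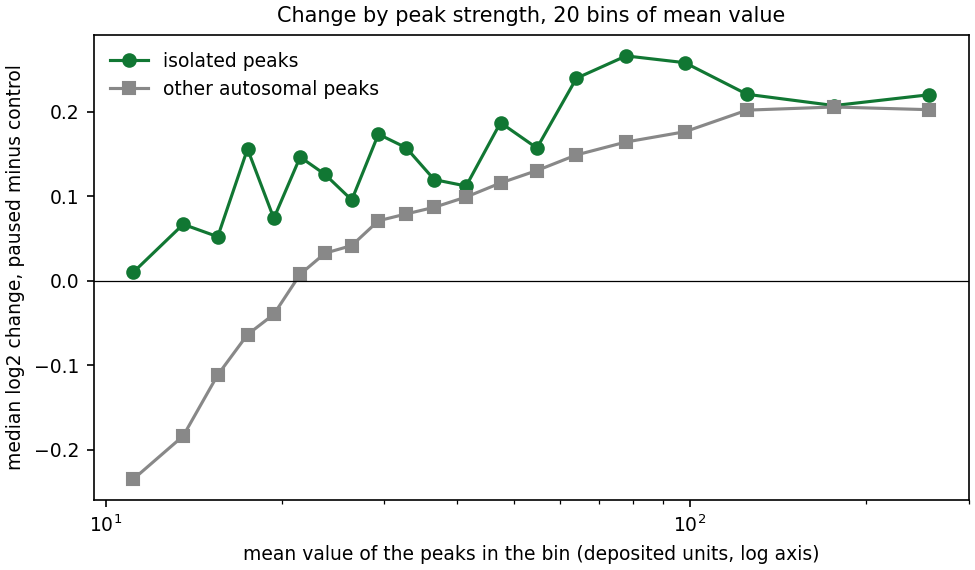
Median log2 change, paused minus control, against the mean value of a peak (log axis) in 20 bins, for isolated peaks (green circles) and other autosomal peaks (grey squares). Isolated peaks lay above the others in 20 of 20 bins, by 0.20 on average in the 5 weakest bins and by 0.04 in the 5 strongest.

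The difference was larger among weak peaks. In the weakest bin, the median change was 0.01 for isolated peaks and -0.23 for the others, and in the strongest it was 0.22 and 0.20. With 4 equal-count classes of mean value, 50 of 895 isolated peaks in the weakest class rose and 19 fell, 5.59% and 2.12%, where 2.55% and 4.32% of the other peaks in that class had calls in these directions. Of the strongest class, 104 of 423 isolated peaks rose and 1 fell, 24.6% and 0.236%, against 19.7% and 0.871%. When only peaks averaging 50 reads or more were tested, 681 isolated peaks remained, 181 were called higher and 10 lower, against 21.6% and 1.76% of all such peaks, and the difference from peaks of like mean value was 0.05.

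Within single libraries the difference was seen as follows. Each value was taken as a deviation from the mean of the 8 libraries on the log2(value + 1) scale, and the median of the other peaks of like mean value was subtracted from that of the isolated peaks. The result was -0.13, -0.10, -0.02 and 0.01 in control replicates 1 to 4, and 0.05, 0.03, 0.13 and 0.03 in paused replicates 1 to 4. All paused libraries lay above all control libraries, although control replicate 4 was close to paused replicates 2 and 4. The means were -0.06 ± 0.07 and 0.06 ± 0.04 (SD, n = 4 each).

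Distance from genes entered this comparison. When the other peaks were matched on the distance to the nearest gene end as well as on mean value, a comparison added after the data were seen, their median change was 0.11 and the difference from isolated peaks fell to 0.04. The values by library were then -0.06, -0.05, 0.01 and 0.02 in control replicates 1 to 4 and 0.02, -0.01, 0.07 and 0.00 in paused replicates 1 to 4. These ranges overlap, with means of -0.02 ± 0.04 and 0.02 ± 0.03 (SD, n = 4 each).

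**Figure D2:**
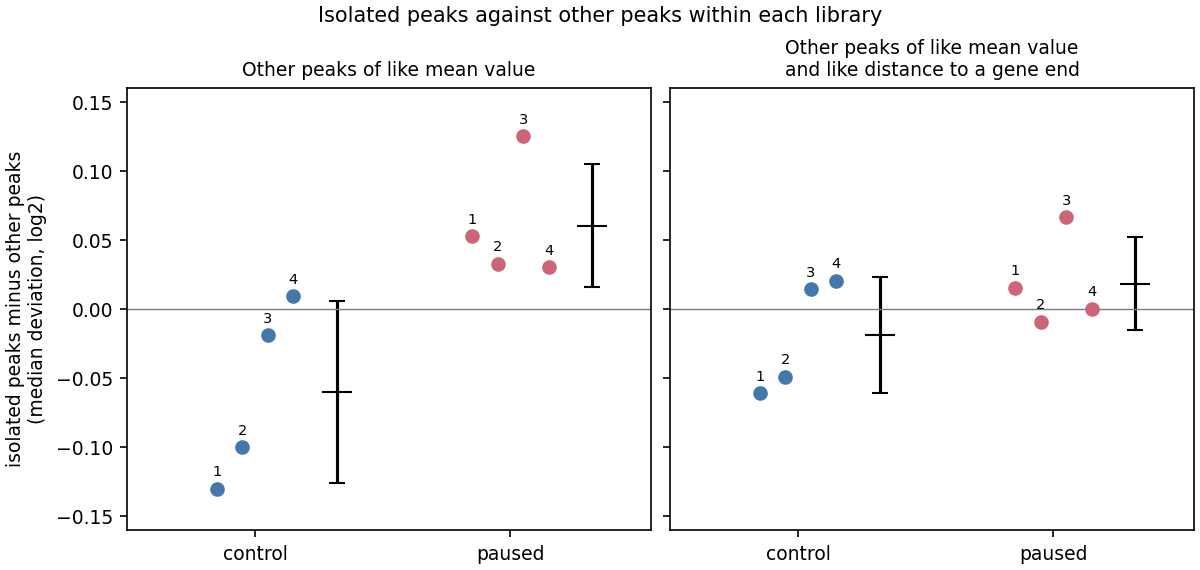
Isolated minus other peaks in each library (points, numbered by replicate; median deviation on the log2 scale; black bars, mean and SD of the 4 libraries). Against other peaks of like mean value (left) the 4 paused libraries lie above the 4 control libraries, and with matching on distance to a gene end as well (right) the groups overlap.

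Position classes show the same values in more detail. Peaks within 1 kb of a protein-coding gene end form a class of their own, so that the classes given here leave them out. Genes here are protein-coding ones. The medians of other peaks are matched on mean value, and their called shares are not. At 100 to 500 kb, for example, the median value was 26.0 for tested isolated peaks and 29.8 for the others. Between genes, at 100 to 500 kb from the nearest gene end, 137 of 912 isolated peaks rose and 18 fell, 15.0% and 1.97%, and among the other peaks at that distance 16.8% and 2.72% were called higher and lower. Their median change was 0.16, and that of other peaks of like mean value in the same class 0.15. Beyond 500 kb, 75 of 511 isolated peaks rose and 6 fell, 14.7% and 1.17%, against 17.1% and 1.85% of the others, with medians of 0.16 and 0.16. Far from genes, isolated and less isolated peaks thus had like median changes. Up to 100 kb from a gene end, the medians were 0.15 for 559 isolated peaks and 0.02 for others of like mean value, and inside genes they were 0.10 for 797 isolated peaks and 0.02 for the others. Of these isolated peaks outside genes, 76 rose and 11 fell, 13.6% and 1.97%, against 11.9% and 3.43% of the others. Inside genes, 91 rose and 20 fell, 11.4% and 2.51%, against 9.31% and 3.15%.

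**Figure D3:**
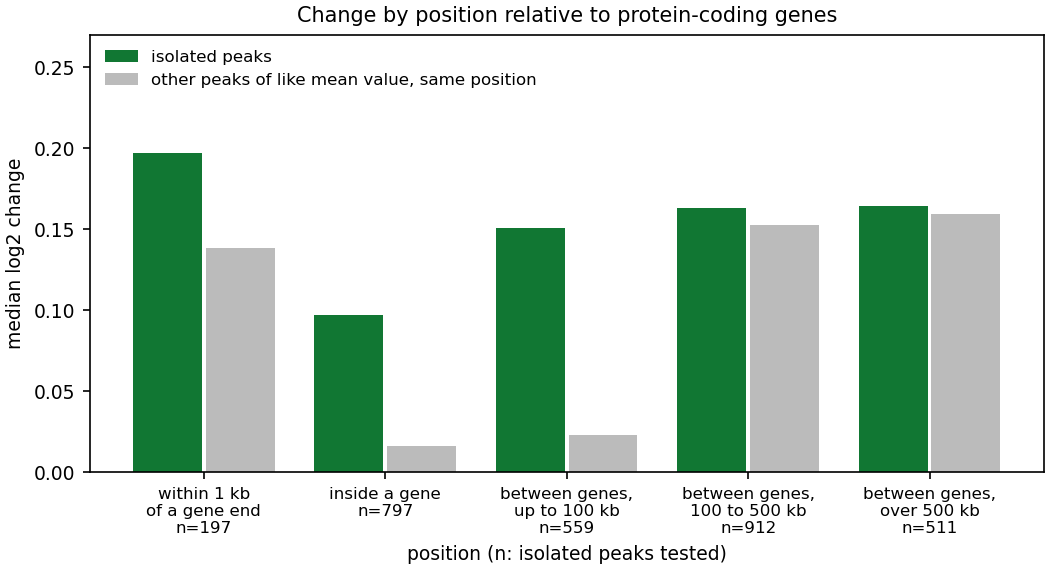
Median log2 change of isolated peaks (green) and of other peaks of like mean value in the same position class (grey), by position relative to protein-coding genes, with the number of isolated peaks tested. The bars are 0.16 and 0.15 at 100 to 500 kb from a gene end, and 0.10 and 0.02 inside genes.

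The threshold of 50 kb did not mark a step. Weighted to the strength of the isolated peaks, the median change was 0.06 for peaks whose nearer neighbour was under 1 kb away, -0.01 at 2 to 5 kb, 0.06 at 5 to 10 kb, 0.11 at 10 to 20 kb, 0.13 at 20 to 50 kb, 0.13 at 50 to 100 kb and 0.15 at 100 to 200 kb. The lowest values were thus at neighbours from 1 to 5 kb, and from 10 kb on they changed by at most 0.04. At 20 to 50 kb, 13.3% of 8255 peaks were called higher, and at 50 to 100 kb 13.8% of 2232 were. With a rule of 25 kb on each side, 8424 tested peaks were 0.12 above others of like mean value, and with 100 kb 749 tested peaks were 0.14 above.

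**Figure D4:**
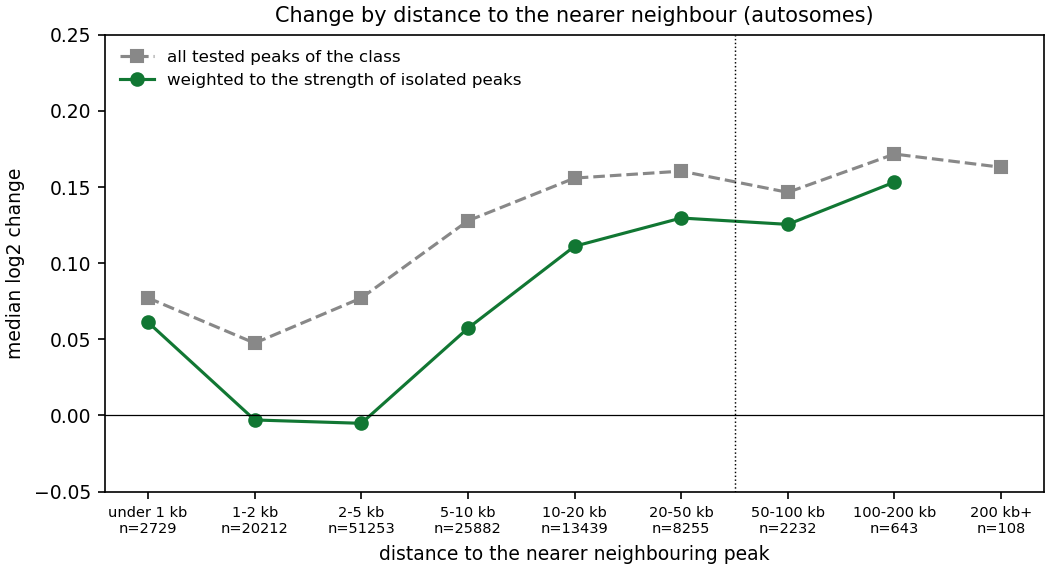
Median log2 change of tested autosomal peaks by distance to the nearer neighbouring peak, unweighted (grey squares) and weighted to the strength of the isolated peaks (green circles; the class of 200 kb and over has too few peaks to weight). The dotted line marks 50 kb, and peaks at chromosome ends with 1 neighbour are included. Weighted values go from -0.01 at 2 to 5 kb to 0.13 at 20 to 50 kb, and to 0.13 at 50 to 100 kb.

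The peaks closest to the threshold are given as examples, and are too few to compare its 2 sides. Just inside it were a pair of peaks 50002 bp apart, 1 inside and 1 beside the fatty acid transporter gene Cd36 (chr5:17850669-17850869 and chr5:17900671-17900871), with log2 changes of 0.08 and -0.03, and a peak inside Ceacam3 (chr7:17155718-17155918) with 0.19. The 3 peaks just outside it lay inside Sugct and nearest to Pou3f3 and Edil3, with their nearer neighbour at 49994, 49923 and 49917 bp and log2 changes of 0.18, 0.55 and 0.50. The adjusted p of limma-trend was from 0.163 to 0.95 for these 6 peaks.

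Peaks with large changes are described among the tested isolated peaks at or above their median value of 28.0. The largest rise among these was inside Impg2, which encodes a proteoglycan of the retinal matrix, at chr16:56227820-56228020. The value was 16.6, 20.3, 6.77 and 19.1 in control replicates 1 to 4 and 39.2, 48.9, 52.8 and 44.5 in paused replicates 1 to 4, so that every paused library lay well above every control library. The log2 change was 1.60 (SE 0.26, limma-trend adjusted p = 4.03e-05). The smallest p among these rises was that of a peak inside Dpyd, the gene of the first enzyme of pyrimidine breakdown, at chr3:119095289-119095489. It went from 53.9, 53.8, 62.7 and 64.7 to 141, 151, 140 and 197 in replicates 1 to 4 (log2 change 1.39, SE 0.14, limma-trend adjusted p = 2.95e-08). With a mean of 94.8 reads per library, it is also the best measured of the 8 largest rises above that value.

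Genes with other roles lay beside the remaining rises. A peak inside Lingo2 (chr4:35708202-35708402), a leucine-rich repeat protein of neurons, had values of 26.96, 23.9, 23.7 and 22.0 in control and 80.8, 50.5, 71.4 and 55.1 in paused libraries (log2 change 1.36). One inside Plcxd3 (chr15:4480102-4480302) went from a mean of 17.0 ± 5.01 to 44.2 ± 6.82 (SD, n = 4; log2 change 1.36). The next lay between protein-coding genes, 914329 bp from the end of the protocadherin gene Pcdh20 (chr14:89385625-89385825), with a log2 change of 1.31. A peak inside Cfap54, a gene of cilia (chr10:92950111-92950311), changed by 1.29. One 691764 bp from Ppargc1a, which encodes a coactivator of mitochondrial genes (chr5:50762385-50762585), changed by 1.27, and one 611379 bp from Aga, a lysosomal enzyme (chr8:52900204-52900404), by 1.26. At such distances the nearest gene is a landmark, and no link between peak and gene was measured.

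Falls were fewer. Of the 1488 tested isolated peaks at or above the value of 28.0, 238 rose with no overlap between groups and 18 fell so, 15.99% and 1.21%. Among all 75589 tested peaks at or above that value, 12.5% and 1.51% did so. The largest of these falls was inside Gpc5, which encodes a glypican of the cell surface (chr14:115830614-115830814). Its values were 44.9, 34.6, 40.6 and 47.0 in control and 15.0, 23.7, 20.2 and 15.2 in paused libraries (log2 change -1.15, SE 0.22, limma-trend adjusted p = 0.000437). A peak inside Armc4, a gene of motile cilia (chr18:7180827-7181027), had 52.9, 51.4, 77.9 and 64.7 against 36.9, 17.4, 43.4 and 31.6 (log2 change -0.96).

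A further 5 of these falls had log2 changes between -0.78 and -0.73. They lay inside Opcml, a neural adhesion gene (chr9:28799988-28800188), and nearest to Cttnbp2 (chr6:18640078-18640278), Trib2 (chr12:15566449-15566649), Izumo3 (chr4:92484166-92484366) and Agtr1b, an angiotensin receptor (chr3:21168790-21168990). Those not inside a protein-coding gene lay 124961, 225176, 337041 and 801713 bp from the end of the protein-coding gene named, in that order. Genes of other kinds were closer, and the peak named by Izumo3 lay 347 bp from the end of Gm12637. The call at Cttnbp2 was lost without control replicate 3 (adjusted p = 0.0857). Those at Izumo3 and Agtr1b were lost under 6 and 5 of 17 alternatives, with adjusted p up to 0.138 and 0.103.

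**Figure D5:**
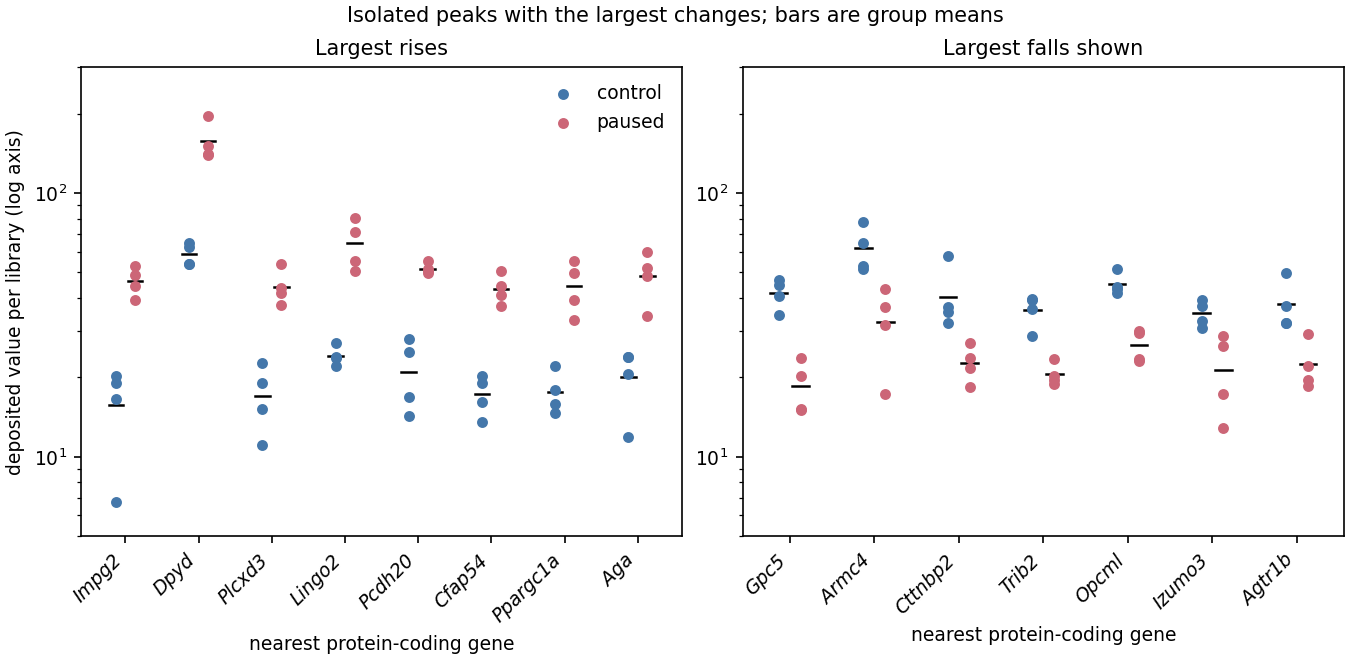
Deposited value of each library (points, log axis; blue control, red paused; black bars, group means) at the 8 isolated peaks with the largest rises and 7 of those with the largest falls at a mean value of 28.0 or more, named by the nearest protein-coding gene. Groups do not overlap at any of the 15 peaks, which the choice of peaks required.

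At gene ends the isolated peaks were strong. Of 199 within 1 kb of a protein-coding gene end, 197 were tested. Their median value was 119, against 136 for other peaks at gene ends. Of the 197 isolated peaks, 23 rose and 1 fell, 11.7% and 0.508%, against 10.5% and 1.29% of the others. The smallest adjusted p was at the start of Glra3, a glycine receptor subunit (chr8:55940345-55940545). Its values were 98.9, 86.0, 115 and 113 in control and 150, 147, 194 and 170 in paused libraries (log2 change 0.67, SE 0.13, limma-trend adjusted p = 0.000439). At Cabcoco1, a calcium-binding protein gene, the peak (chr10:68541701-68541901) went from 102, 84.8, 98.2 and 104 to 137, 147, 175 and 148 (log2 change 0.63). Groups did not overlap at either.

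Further rises at gene ends were at Col25a1, a membrane collagen gene (chr3:130180558-130180758; log2 change 0.58), Kcnh7, a voltage-gated potassium channel gene (chr2:63185045-63185245; 0.56), Ptprz1, a receptor phosphatase gene (chr6:22875131-22875331; 0.47), and Dab1, the gene of an adaptor in reelin signalling (chr4:103619423-103619623; 0.42). These 4 calls depended on the processing. Col25a1 was lost under 2 alternatives, Kcnh7 and Ptprz1 under 3 each and Dab1 under 7 of 17, with loess correction on peak strength and DESeq2 among them in all 4 cases. The single fall at a gene end was at the hair keratin-associated gene Krtap26-1, a weak peak with a mean value of 12.99 (log2 change -0.995, limma-trend adjusted p = 0.0453), named here after its value was seen. Its call was lost under 7 of 17 alternatives.

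The 5 strongest isolated peaks did not pass the test as fitted without a replicate block. At Megf9 (chr4:70534962-70535162), whose promoter is the most CpG-rich of those shown above, values were 345, 407, 376 and 379 in control and 371, 397, 470 and 433 in paused libraries, with overlapping groups (log2 change 0.15, SE 0.10, limma-trend adjusted p = 0.355). Other strong isolated peaks lay at Cfap36 (chr11:29247275-29247475), Tmtc3 (chr10:100487330-100487530), Ube3a, an imprinted ubiquitin ligase gene (chr7:59228583-59228783), and 24 bases from a start site inside Ercc6l2 (chr13:63815116-63815316). Their log2 changes were 0.27, 0.25, 0.19 and 0.29, with limma-trend adjusted p from 0.0678 to 0.221. With a replicate block, limma-trend called Cfap36 (adjusted p = 0.0236), Tmtc3 (0.04005) and Ercc6l2 (0.0202) higher. All 3 were also called without paused replicate 1, and Ercc6l2 without control replicate 2 and in edgeR with the deposited factors (adjusted p = 0.0470).

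The sequence at isolated gene starts was compared with that at other starts. A RefSeq window had its start site within 250 bases of the centre of an isolated peak in 147 cases and of another autosomal peak in 9729. Isolated starts held a median of 15 CpG in 300 bases, other starts with a peak 19, and 14189 starts with no peak within 1 kb held 3. The share with at most 5 CpG was 17.7%, 11.6% and 74.8%. Isolated starts were thus mostly CpG-rich, as were other open starts. The 120 tested isolated peaks at starts with 6 or more CpG had a median value of 139 and a median change of 0.19, with 13 called higher, 10.8%, and 0 lower by limma-trend, a share near the 11.0% of all tested peaks. The 25 at starts with fewer had a median value of 35.3 and a median change of 0.03, with 2 higher and 1 lower.

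Short motifs were counted on both strands of the 300-base windows. The GC box GGGCGG was in 53.7% of isolated starts, 61.2% of other open starts and 34.03% of all windows. The CCAAT box, spelled CCAAT, was in 38.8%, 39.9% and 37.1%. The ETS core CCGGAAG was in 10.2%, 16.6% and 8.05%, the E-box CACGTG in 8.16%, 10.2% and 6.93%, and the TATA box TATAAA in 10.2%, 6.44% and 14.2%. With 147 isolated starts, these shares are descriptions of few windows. Each motif was searched for separately, so that matches of different motifs may overlap, and a match of letters is a description, not a bound site. Sequence of isolated peaks away from gene starts was not analysed here.

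A string of isolated peaks on chromosome 7 lay at copies of 1 microRNA family. Of 919 autosomal hairpins in RefSeq, 3 had their middle within 1 kb of an isolated peak, and all 3 were of the Mir344 family, on the minus strand at chr7:61790519-61790581 (Mir344b), chr7:61877770-61877864 (Mir344) and chr7:61940027-61940106 (Mir344-2). The mature sequences are shown, 5′ to 3′ with the seed (bases 2 to 8) in capitals, because they show how alike these copies are.
mmu-miR-344-3p: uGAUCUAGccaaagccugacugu
mmu-miR-344b-3p: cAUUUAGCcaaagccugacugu
mmu-miR-344-5p: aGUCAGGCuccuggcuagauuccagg
mmu-miR-344b-5p: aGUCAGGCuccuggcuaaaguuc

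The 5p arms share the seed and the 3p arms do not, and Mir344 and Mir344-2 give the same mature sequences. Reads from such near-identical copies could be split among them or lost, depending on how the authors treated multiple alignments, which the sources used here do not give. The peak at Mir344b (chr7:61790578-61790778) had values of 16.9, 23.9, 35.6 and 47.0 in control and 29.99, 34.7, 37.2 and 37.5 in paused libraries, with a control range that covers the paused one. Log2 changes were 0.26 there, 0.06 at Mir344 (chr7:61877837-61878037) and 0.04 at Mir344-2 (chr7:61940087-61940287), with limma-trend adjusted p of 0.480, 0.877 and 0.910.

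Isolated peaks were then grouped by the nearest protein-coding gene, with lists given by gene family. Several lists made up a larger share of isolated peaks than of other autosomal peaks. Neuronal adhesion and axon guidance genes were nearest to 267 isolated peaks, 7.68% against 1.12%, cadherins and protocadherins to 139, 4.00% against 0.586%, and olfactory receptors to 81, 2.33% against 0.381%. Zfp zinc finger genes were nearest to 29, 0.834% against 1.85%. Peaks beside the same gene are not independent. Here a peak is called beside a gene when that gene is the nearest, at any distance. In the median the isolated peaks lay 609778 bp from the gene end for cadherins and protocadherins and 287094 bp for neuronal adhesion and guidance genes. The median was 248776 bp for developmental regulators and 7850 bp for olfactory receptors. The calls below are read against the 11.0% of all tested peaks called higher and the 2.91% called lower, or 4.51% and 5.36% with total scaling. The median change of all tested peaks was 0.10, or -0.05 with total scaling.

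For cadherins and protocadherins, which join cells to one another, 22 of 119 tested isolated peaks rose and 1 fell, 18.5% and 0.84%, against 15.8% and 2.10% of other peaks beside these genes. With total scaling there were 12 rises and 1 fall. The rises lay beside 13 genes, the median change was 0.21, and other peaks of like mean value beside these genes had 0.11. The medians of the isolated peaks were 0.10 with TMM scaling and 0.06 with total scaling. The peak beside Pcdh20, given above, had the smallest adjusted p. Neuronal adhesion and guidance genes had 28 rises and 5 falls among 225 tested peaks, with a median of 0.16. These are 12.4% and 2.22%, near the 12.3% and 2.74% of other peaks beside these genes and near the shares of all tested peaks. With total scaling there were 12 rises and 10 falls, with a median of 0.01. Their leading peak lay 113399 bp from Ntm, which encodes neurotrimin (chr9:30076568-30076768). Its values were 29.4, 35.8, 28.8 and 36.7 in control and 68.1, 66.3, 72.9 and 65.6 in paused libraries (log2 change 1.05, SE 0.17, limma-trend adjusted p = 4.89e-05).

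Olfactory and vomeronasal receptor genes are silent in most tissues. Of 68 tested isolated peaks nearest to olfactory receptor genes 11 rose and 3 fell, with a median of 0.14, the same as the 0.14 of other peaks of like mean value there. The shares are 16.2% and 4.41%, against 18.6% and 0.932% of other peaks beside these genes. With total scaling the balance turned, to 4 rises and 6 falls with a median of -0.01. The leading peak, near Olfr536 (chr7:140520127-140520327), was weak, with 10.03, 9.55, 3.39 and 4.41 in control and 24.2, 34.7, 18.6 and 26.9 in paused libraries (log2 change 1.87, SE 0.34, limma-trend adjusted p = 0.000238). Of 32 peaks nearest to vomeronasal and trace amine receptor genes 6 rose and 1 fell, 18.8% and 3.13%, against 16.8% and 2.80% of other peaks beside these genes. The median was 0.27, against 0.16 for other peaks of like mean value there. With total scaling 2 were called higher and 3 lower, with a median of 0.12. A strong one near Vmn2r80 (chr10:79200046-79200246) went from 75.02, 81.2, 77.9 and 86.7 to 121, 139, 135 and 125 (log2 change 0.69, SE 0.13, limma-trend adjusted p = 0.000305).

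Among ion channel genes 8 of 54 tested isolated peaks rose and 0 fell by limma-trend, 14.8% higher against 11.5% of other peaks beside these genes. After TMM scaling 7 were called higher and 1 lower, and with total scaling 3 and 1. The leading peak lay 72753 bp from Cacna2d3, a calcium channel subunit gene (chr14:29795428-29795628), with a log2 change of 0.83. Neurotransmitter receptor genes had 13 rises and 3 falls among 73 peaks, 17.8% and 4.11%, against 16.2% and 1.85% of other peaks beside these genes, and 7 and 4 with total scaling. Developmental regulators had 12 rises and 2 falls among 61 peaks, 19.7% and 3.28%, against 13.01% and 2.403% of other peaks beside these genes, and 4 and 3 with total scaling. The leading peak lay 416521 bp from Sox11, a neural transcription factor gene (chr12:27759139-27759339; log2 change 1.22). Zfp genes had 2 rises and 0 falls by limma-trend among 21 peaks, 9.52% higher against 13.6% of other peaks beside these genes, and 0 were called with total scaling. The leading peak, 168307 bp from Zfp326 (chr5:106084025-106084225; log2 change 1.12), lost its call in DESeq2 (adjusted p = 0.122) and with total scaling. The medians of the ion channel, neurotransmitter receptor and developmental lists were 0.14, 0.12 and 0.13. With total scaling they were -0.01, -0.03 and -0.01, against -0.05 for all tested peaks.

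The genes that held most isolated peaks were very long ones. Isolated peaks lay inside 618 genes, with a median span of the host of 433787 bp, against 73302 bp for the hosts of other peaks. Dlg2, a synaptic scaffold gene that spans 1973059 bp, held 11 isolated peaks, Sgcz and its 1143866 bp held 10, and Naaladl2 and Robo2 held 9 each. Of the 34 tested peaks in these 4 genes 2 rose, 1 in Sgcz and 1 in Naaladl2, and 0 fell by limma-trend, against 11.4% higher and 2.51% lower among all tested isolated peaks inside genes.

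The most isolated peak of all could not be tested. It lay at chr7:32199975-32200175, with the nearer neighbour 608758 bp away, and its values were 1.38, 3.58, 1.69 and 1.47 in control and 5.77, 7.89, 3.10 and 2.34 in paused libraries, under the filter. The next lay in a gene-poor stretch 760673 bp from Pcdh17 (chr14:83682790-83682990), with values of 23.5, 19.1, 16.9 and 23.5 in control and 34.6, 36.3, 49.7 and 36.3 in paused libraries. It rose with a log2 change of 0.88 (SE 0.22, limma-trend adjusted p = 0.00487) and lost its call in DESeq2 (adjusted p = 0.0858). The other 3 of the 5 most isolated peaks, nearest to Tlr4, D3Ertd751e and LOC108168187, had log2 changes of 0.27, -0.13 and 0.29 and adjusted p from 0.325 to 0.692.

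In the authors' deposited table, 394 of the 3477 isolated peaks have an FDR under 0.05, 11.3%, against 11.0% of all peaks. Of these, the authors' deposited table gives 364 as higher and 30 as lower in paused cells, with 9.19% and 1.80% of all peaks so listed. Of the 364 that the authors' deposited table lists as higher, 349 passed as higher here too, and 0 of the 394 were called in the opposite direction by limma-trend, from the same values.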

How the data were processed

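ATAC-seq was done on 4 control and 4 paused libraries of E14 cells, with 150 bp paired-end reads. The submitters' processing notes name FastQC, Trim Galore, Bowtie2 2.4.1, MACS3 3.0.3, DiffBind 3.16.0 and the build mm10, without roles; duplicate removal, multiple alignments and any Tn5 shift are not given in the sources used here. The signal values deposited by the authors are reads per 201 bp peak divided by 1 factor per sample: between 99.8% and 100.0% of the values in each column were whole multiples of 1 step within 0.0051. The log2 concentrations and folds and the p-values with FDR deposited by the authors were used only where their table is named. Unused per-sample columns numbered 0.

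The members and lists were chosen with earlier results of these data known. The test was limma-trend (limma 3.58.1, R 4.3.3), for peaks whose mean value reached 10, on log2(value + 1) over the whole table, without covariates. Folds on this scale understate changes of weak peaks. edgeR 4.0.16 (quasi-likelihood) and DESeq2 1.42.0 on the recovered reads were alternatives, as were other scalings, filters, distances, bins, a replicate block and leaving out each sample. On those reads edgeR called 21045 peaks with the deposited factors and 16140 with TMM. The fits and the matching were tested on simulated data. Groups came from the sample titles and columns from the library names.

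Peaks are named by rules: the 8 largest rises and the 8 largest falls, called, without overlap and not below the median value, the 5 strongest, the 5 most isolated, 3 on each side of the threshold, the smallest adjusted p in each list, and 6 at gene ends. Of the peaks these rules chose, 2 are not reported here. Genes, promoters and microRNAs are from RefSeq, GRCm38.p6, the build to which mm10 corresponds. No promoter window on chromosome 18 was used here. Overlapping windows on opposite strands were equal as reverse complements in 1788 of 1788 cases.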

Additional observations from a re-analysis of the deposited data

Results flagged for a closer look

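Groups of 4 libraries were searched for a single distant one by Dixon's ratio, the gap to the next value over the whole range, at its 95% critical value. The 104 groups were the per-library summaries of isolated peaks and the chosen peaks, and 4 passed, where chance flags about 1 in 20. The reads in isolated peaks were 337953 in control replicate 1 against 73627 to 100105 in the other controls (0.900); that library is the deepest. At the most isolated peak, on chromosome 7 near Scgb2b11, control replicate 2 had 3.58 against 1.38 to 1.69 (0.859), where 1 read is worth 1.19 in that library. At the peak nearest to Pcdh17, paused replicate 3 had 49.7 against 34.6 to 36.3 (0.886). At the first of the Cd36 peaks, paused replicate 4 had 34.0 against 27.7 to 28.4 (0.889).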

How the results depend on the processing

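The median change of isolated peaks minus that of others of like mean value, 0.12, stayed positive under every alternative run. It moved by more than the spread between replicates to 0.0472 with a mean of at least 50 reads and to 0.0406 with matching on distance to a gene end. It was 0.0865 and 0.119 with bins made from the control or the paused samples, and ranged from 0.0907 to 0.140 when 1 sample was left out. The median of the isolated peaks was 0.0529 in DESeq2, 0.0533 in edgeR with TMM, 0.0762 after loess correction, 0.0456 with TMM scaling, -0.00097 with total scaling and from 0.123 to 0.171 when 1 sample was left out. Rises numbered 129 in DESeq2, 236 after loess correction, 181 at a mean of 50 reads, 182 with total scaling, 233 with TMM scaling, 1113 with 25 kb and 95 with 100 kb. Falls numbered 24 in DESeq2, 97 in edgeR with TMM, 10 at 50 reads, 107 with total scaling, 181 with 25 kb and 15 with 100 kb. With 1 sample left out, rises ran from 271 to 359 and falls from 28 to 67. The counts with another distance or read minimum are of other numbers of tested peaks, and the cause of these changes was not tested.

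The labels state no pairing by replicate number, and the correlations of deviations do not settle it. They were weak but positive for the 4 same-numbered pairs, at 0.079, 0.0358, 0.133 and 0.0395. Every library except control replicate 2 and paused replicate 2 correlated best with its own number. With the replicate block 471 isolated peaks were called higher and 73 lower, against 13.6% and 3.63% of all peaks, and the median change and its difference from other peaks were 0.151 and 0.120. Without the filter on low values 398 rises and 59 falls were called, against 10.2% and 2.86% of all peaks. The difference in the share of reads was 0.0386 percentage points, and from 0.0248 to 0.0584 when 1 sample was left out. Of 31 chosen peaks that passed the test, 20 kept their call under all 17 alternatives. Directions of peaks that had not passed turned at Megf9 (-0.0626 with loess, -0.0103 with total scaling), Ube3a (-0.0153, loess), D3Ertd751e (from -0.262 without control replicate 3 to 0.00925 without control replicate 4), the first Cd36 peak (-0.00283, -0.0750 and -0.0287 with loess, total and TMM scaling), the second (0.0564 without control replicate 4, and from -0.172 to 0.0757 without paused replicate 3 or 4) and Sugct (-0.00977, loess). The median isolated peak had 14 to 21 reads in 7 of 8 libraries, and whether small changes were missed at this depth was not tested.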

Other observations

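Isolated peaks were spread unevenly over the autosomes. They made up 1.26% of the 9527 peaks of chromosome 11 and 4.18% of the 6461 peaks of chromosome 3. The share of tested isolated peaks called higher by limma-trend went from 8.57% on chromosome 13 (12 of 140) to 23.5% on chromosome 15 (32 of 136). Of all tested peaks 11.0% were called higher. The median change of the isolated peaks went from 0.03 on chromosome 19 to 0.26 on chromosome 15. These are counts of peaks, chosen for mention after they were seen, with no test between chromosomes. Calls of the other peaks were not counted by chromosome, so that the values may not be particular to isolated peaks. Of the isolated peaks, 1473 were followed downstream by another isolated peak, so that many lie in strings of widely spaced sites.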
